A study of Mus musculus with 10 samples.

Results

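Vomeronasal receptor genes were followed in a table of DNA methylation at single cytosines. The members were the cytosines read at least 5 times in each library that lay within the span, plus 1 kb on either side, of protein-coding genes whose mm10 RefSeq symbol starts with Vmn1r or Vmn2r. There were 355 such genes, 231 Vmn1r and 124 Vmn2r, among 21896 protein-coding genes. Their windows held 3961 cytosines in 2813 CpGs, which was 0.0587% of the 6745376 cytosines of the table. Of the 355 genes, 3 could not be placed on a chromosome (Vmn1r186, Vmn1r187 and Vmn2r122), 84 had no listed cytosine, 83 had 1 or 2 CpGs and 185 had the 3 or more CpGs required for a test.

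The cells were spermatogonia from testes of pups of LT-11B6 mice, an Id4-eGfp transgenic line on a C57BL/6 background, at postnatal day 6. All cells of both groups were ID4-EGFP+, and ID4 marks undifferentiated spermatogonia with stem cell potential. Staining for the surface tetraspanin TSPAN8 divided them: TSPAN8-high was the 1/3 of cells with the strongest staining and TSPAN8-low the 1/3 with the weakest positive staining. Each group was 1 library of reduced-representation bisulfite sequencing (RRBS), made from 300 ng of DNA of 5 pooled sorts, and the 8 chromatin samples of the series were not analysed here. RRBS reads fragments cut at restriction sites after bisulfite has converted unmethylated cytosines. With 1 library a group there was no error between replicates, so each test compares these libraries and not the conditions, and all intervals cover counting error only. As a check of the cell label, chosen after the data were seen, the germ cell genes Dazl and Ddx4 were read around their starts. They were at 2.48% and 2.07% methylation in TSPAN8-high and at 1.40% and 0.903% in TSPAN8-low. Id4, the gene named in the transgene, was at 1.64% and 1.23% and is not taken as a check. Its median coverage was 86 and 105 reads per cytosine, against 11 and 9 for Dazl and 9 and 16 for Ddx4. The cause of this coverage was not tested.

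Vomeronasal receptors are G protein-coupled receptors of sensory neurons in the vomeronasal organ, which detects pheromones and other chemical signals between animals. V1R receptors (Vmn1r genes) have a short extracellular part and a coding sequence in a single exon, while V2R receptors (Vmn2r genes) carry a long extracellular domain encoded over several exons. A sensory neuron expresses very few of these genes, most of which lie in clusters of recent duplicates.

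5 promoters are shown for the range of what was measured at gene starts. The sequences are those of RefSeq on mm10 (GRCm38.p6), from 250 bases before to 50 bases after the annotated start, written 5′ to 3′ on the strand of the gene, and capitals mark the CpGs that the table measured. The promoter of Vmn2r29 is chr7:7278240-7278539 on the minus strand, that of Vmn2r38 is chr7:9097716-9098015 on the minus strand, that of Vmn1r159 is chr7:22843556-22843855 on the minus strand, that of Vmn1r188 is chr13:22087628-22087927 on the plus strand and that of Vmn1r4 is chr6:56956263-56956562 on the plus strand.
Vmn2r29: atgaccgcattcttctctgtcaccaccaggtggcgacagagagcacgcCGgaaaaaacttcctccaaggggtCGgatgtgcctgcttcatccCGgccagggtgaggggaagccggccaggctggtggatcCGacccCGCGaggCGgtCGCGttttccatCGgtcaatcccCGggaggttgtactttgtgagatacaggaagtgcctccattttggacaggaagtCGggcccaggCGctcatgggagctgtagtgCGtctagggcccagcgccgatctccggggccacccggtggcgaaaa
Vmn2r38: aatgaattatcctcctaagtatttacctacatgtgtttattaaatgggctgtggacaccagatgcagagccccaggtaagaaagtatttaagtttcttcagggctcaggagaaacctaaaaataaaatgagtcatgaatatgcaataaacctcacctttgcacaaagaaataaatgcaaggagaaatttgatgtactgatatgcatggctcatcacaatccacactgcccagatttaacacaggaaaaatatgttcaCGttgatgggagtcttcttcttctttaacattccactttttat
Vmn1r159: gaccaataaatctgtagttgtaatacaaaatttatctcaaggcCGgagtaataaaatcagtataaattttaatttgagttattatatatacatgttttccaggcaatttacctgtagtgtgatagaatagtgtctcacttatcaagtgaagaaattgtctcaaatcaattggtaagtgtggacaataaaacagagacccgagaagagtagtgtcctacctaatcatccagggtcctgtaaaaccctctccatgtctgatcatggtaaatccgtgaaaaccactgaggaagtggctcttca
Vmn1r188: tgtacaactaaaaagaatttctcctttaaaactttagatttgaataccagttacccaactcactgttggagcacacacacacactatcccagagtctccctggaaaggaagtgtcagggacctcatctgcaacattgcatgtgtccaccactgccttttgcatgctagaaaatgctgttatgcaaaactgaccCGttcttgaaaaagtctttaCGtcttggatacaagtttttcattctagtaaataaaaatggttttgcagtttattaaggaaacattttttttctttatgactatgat
Vmn1r4: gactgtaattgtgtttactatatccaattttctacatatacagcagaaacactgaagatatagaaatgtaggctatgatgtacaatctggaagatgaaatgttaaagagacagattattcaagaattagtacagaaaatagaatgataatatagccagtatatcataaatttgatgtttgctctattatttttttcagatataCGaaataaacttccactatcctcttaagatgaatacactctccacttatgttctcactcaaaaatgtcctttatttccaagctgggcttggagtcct

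Vmn2r29 had the most CpGs of these and little methylation. RefSeq lists another promoter for this gene, which is not printed. The printed window of Vmn2r29 holds 23 CG dinucleotides, of which 14 were measured. Methylation was read there in 23 of 230 reads in TSPAN8-high and 15 of 182 (8.24%) in TSPAN8-low. Between positions -120 and -91 from the start, 7 CpGs were at 0% in TSPAN8-low and 6 of them were at 0% in TSPAN8-high on 10 to 14 reads each. The exact upper bounds of these zeros run from 23.2% (0 of 14 reads) to 30.8% (0 of 10 reads). These bounds take reads as independent. The single CpG of Vmn2r38, at position 7, was at 11.1% of 18 reads and 25.0% of 8 reads. The printed promoters of Vmn1r genes were methylated in both libraries. Vmn1r188 was at 92.4% of 132 reads and 94.5% of 73, Vmn1r159 at 100% of 5 and 10 reads, and Vmn1r4 at 100% of 5 and 7 reads. The printed promoters do not stand for their families. Among promoters not printed, Vmn1r227 was at 30.8% of 26 reads and 16.7% of 24, and Vmn2r65 at 100% of 24 and 95.7% of 46.

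Promoters of vomeronasal receptors are poor in CpGs, which limits what was measured there. RefSeq held 324 promoters for 323 of the 355 genes, with a median of 1 CG and 24.1% without any, against a median of 7 CG and 5.43% without any over all 32851 promoters of the table; olfactory receptor promoters also had a median of 1 CG, with 33.3% without any. The restriction motif CCGG (MspI) was present in 8.33% of member promoters and 52.8% of all promoters, CTAG (BfaI) in 46.0% and 59.2%, and TTAA (MseI) in 68.8% and 52.4%, each motif being its own reverse complement. The motif TATAAA, searched on both strands, was in 42.2% of Vmn1r promoters, 22.9% of Vmn2r promoters, 41.0% of Olfr (olfactory receptor) promoters and 13.6% of all promoters. CCCNNGGG, also on both strands, was in 0.485% of Vmn1r, 19.5% of Vmn2r and 13.7% of all promoters. A match describes the letters in these windows and is not a site in use. A cytosine was measured in the promoter window of 43 members, 38 of them through 1 CpG, and of the 43 windows 27 were at 80% or above in both libraries and 6 below 50% in both.

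Over all members, the difference between the libraries lay within counting error. Pooled over members, 73.2% of 46196 reads were methylated in TSPAN8-high and 73.3% of 45755 in TSPAN8-low, a difference, TSPAN8-high minus TSPAN8-low, of -0.15 percentage points (95% Newcombe interval -0.72 to 0.42). Over the whole table the levels were 72.4% and 73.2%. Median coverage was 10 reads per member cytosine in each library, the same as over the whole table.

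Vmn1r genes, the V1R receptors, were at 76.5% and 77.5%, a difference of -1.06 points (interval -2.30 to 0.17). Vmn2r genes, the V2R receptors, were at 72.4% and 72.3%, a difference of 0.09 points (interval -0.55 to 0.73). Olfactory receptor genes (Olfr), the comparable receptor family of the main olfactory epithelium, were at 81.2% and 81.5%.

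The pooled Vmn1r level holds a CpG-dense stretch in the window of Vmn1r4 that a neighbouring gene shares, and without cytosines shared with other genes Vmn1r genes were at 84.1% in TSPAN8-high. Levels were therefore also taken at cytosines with 1 or 2 listed CpGs within 200 bp (CpG-sparse cytosines), which were 84.3% of the members' cytosines and 50.4% of those in other protein-coding genes. There Vmn1r genes were at 84.7% and 85.6%, Vmn2r genes at 74.3% in both libraries, Olfr genes at 85.4% and 85.8%, and other protein-coding genes at 90.3% and 90.5%. Vmn2r genes were therefore the lowest of these groups in both libraries, while the Vmn1r level lay within 1 point of that of Olfr genes.

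The lower Vmn2r level came with more cytosines of intermediate methylation. Among CpG-sparse cytosines read at least 10 times in each library, 273 of 993 in Vmn2r genes (27.5%) lay between 20% and 80% in both libraries. It was 23 of 223 in Vmn1r genes, and the share was 11.5% in Olfr genes and 5.05% over the whole table. At CpGs of any density read at least 10 times on both strands, the median gap between the strands was taken. It was 9 points in TSPAN8-high and 10 in TSPAN8-low for Vmn2r genes, 8 and 5 for Vmn1r genes, and 3 in each for the whole table. Of cytosines of any density at this depth, 4.65% in Vmn2r genes, 13.0% in Vmn1r genes and 20.5% of the table lay below 20% in both libraries. The part of this mix of levels in the gaps was not tested.

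**Figure D1:**
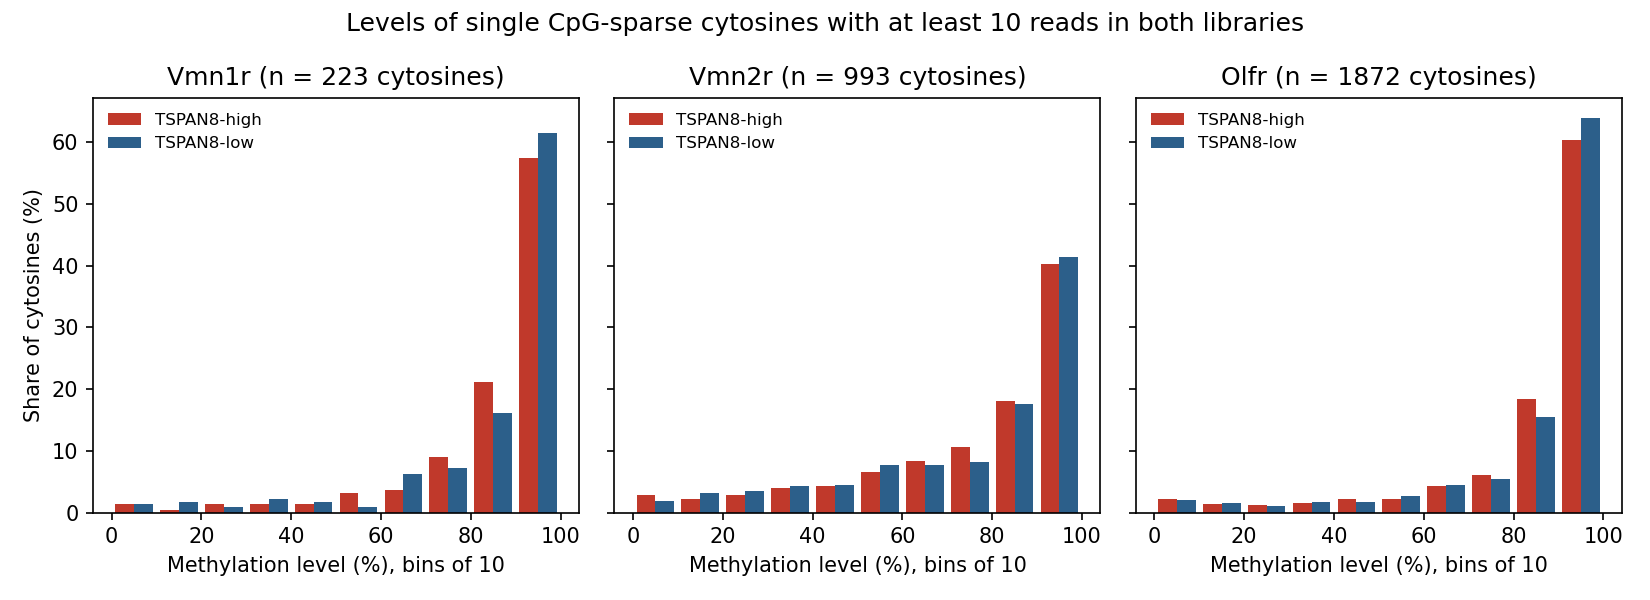
Distribution of methylation levels over single CpG-sparse cytosines read at least 10 times in each library, in bins of 10 points, for Vmn1r, Vmn2r and Olfr genes; bars give the share of cytosines in TSPAN8-high (red) and TSPAN8-low (blue). The bin above 90% holds 57.4% and 61.4% of Vmn1r cytosines but 40.3% and 41.4% of Vmn2r cytosines, whose remainder spreads over all lower bins.

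Gene by gene, the libraries gave nearly the same picture. The 75 tested Vmn1r genes had median levels of 90.0% and 90.2% (TSPAN8-high, then TSPAN8-low, here and below), and the 110 tested Vmn2r genes 72.8% and 73.1%, against 61.1% and 62.1% over all 19930 genes tested, whose windows include CpG islands. Both libraries were below 80% at 19 of 75 Vmn1r genes and at 61 of 110 Vmn2r genes. Across genes, which share the libraries and are not independent replicates, the levels of the libraries correlated with Pearson's r of 0.889 for Vmn1r and 0.957 for Vmn2r. Over all genes tested r was 0.991.

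Few members were called different between the libraries. Reads pooled over each gene were compared with Fisher's exact test (two-sided, Benjamini-Hochberg over all genes), and with a minimum difference of 10 points 0 of 185 members were called higher in TSPAN8-high and 2 were called lower. Over all 19930 genes 0.452% were called higher and 0.798% lower. At any size of difference 5 members had an adjusted p below 0.05, where 17.4% of all genes did, and 22 had an unadjusted p below 0.05. These shares are not alike in power. Over all placed genes, tested or not, the 352 members had a median of 3 CpGs and other protein-coding genes outside the Olfr family 76. The median absolute difference was 3.54 points over tested members and 1.84 over all genes tested. Of the 185 members 82 were higher and 103 lower by any amount, with a median difference of -0.50 points for members and for all genes alike.

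The called genes were both V1R receptor genes measured at 3 CpGs. Vmn1r2 (chromosome 4, 3172083 to 3173003) was at 59.5% of 37 reads in TSPAN8-high and 96.6% of 29 reads in TSPAN8-low (difference -37.1 points, interval -53.3 to -17.3, Fisher's exact test, adjusted p 0.00502). Vmn1r58 (chromosome 7, 5408887 to 5413145) was at 8.82% of 34 reads and 39.5% of 43 reads (difference -30.7 points, interval -46.7 to -11.4, Fisher's exact test, adjusted p 0.0254). In Vmn1r2 the 3 cytosines had 6 of 8, 8 of 16 and 8 of 13 reads methylated in TSPAN8-high and 8 of 8, 16 of 16 and 4 of 5 in TSPAN8-low, so the middle one had the most reads in both. In Vmn1r58 the 4 cytosines had 0 of 7, 2 of 12, 0 of 10 and 1 of 5 reads methylated against 0 of 10, 8 of 12, 4 of 14 and 5 of 7. Neither gene kept the 3 CpGs needed for a test when 1 CpG was kept per 100 bp, where the differences were -25.6 and -26.4 points, or with at least 10 reads per cytosine. At that depth 108 members could be tested, and the genes called were Vmn2r17 and Vmn2r75 (higher) and Vmn2r91 and Vmn2r101 (lower).

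The other members with an adjusted p below 0.05 differed by less than 10 points. Vmn1r50 was at 89.9% and 99.2% (difference -9.28 points, Fisher's exact test, adjusted p 0.0114). Vmn2r75 was at 53.0% and 43.1% over 29 CpGs (difference 9.87 points, Fisher's exact test, adjusted p 0.0212). Vmn2r97 was at 52.0% and 44.7% over 38 CpGs (difference 7.31 points, Fisher's exact test, adjusted p 0.0491). Vmn2r75 and Vmn2r97 were thus the more methylated in TSPAN8-high, and Vmn1r50 the less methylated. By any amount, 57 of 110 tested Vmn2r genes and 46 of 75 Vmn1r genes were lower in TSPAN8-high. The median difference was -0.16 points in Vmn2r genes and -2.23 points in Vmn1r genes. A contrast of the families was not tested.

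Larger differences occurred at members with few CpGs, and these did not pass the test. Vmn2r33 was at 53.2% and 32.6% (difference 20.6 points, interval 1.70 to 37.3, Fisher's exact test, adjusted p 0.171) and Vmn1r159 at 94.9% and 77.6% (17.3 points, interval 2.25 to 31.3, Fisher's exact test, adjusted p 0.128). In the other direction Vmn2r68 was at 51.9% and 66.3% (-14.4 points, adjusted p 0.196), Vmn2r45 at 57.8% and 72.0% (-14.2 points, adjusted p 0.379) and Vmn1r5 at 77.9% and 89.3% (-11.4 points, adjusted p 0.0859) by the same Fisher's exact test. All of these had between 5 and 9 CpGs.

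**Figure D2:**
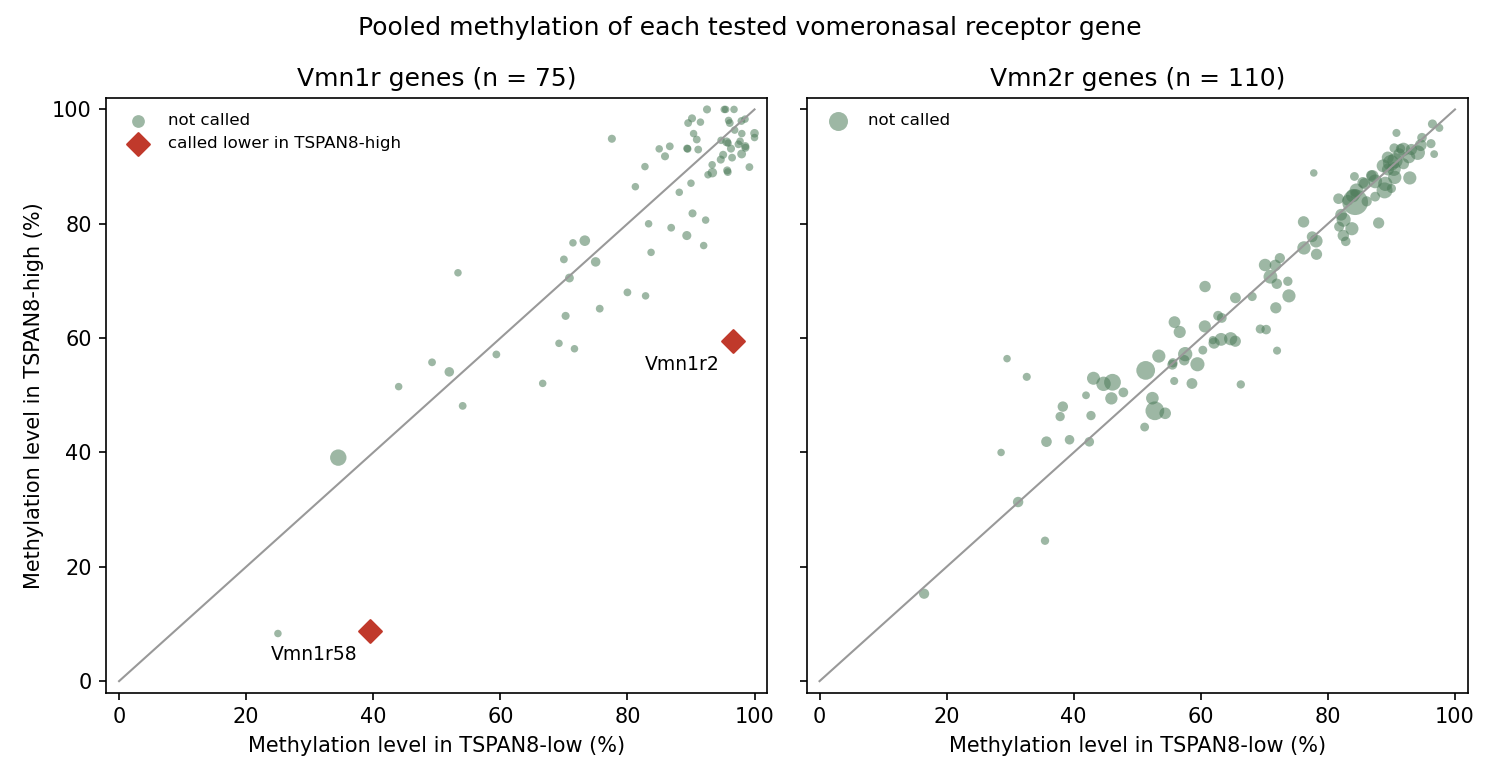
Pooled methylation level of each tested gene in TSPAN8-low (horizontal axis) and TSPAN8-high (vertical axis), for 75 Vmn1r and 110 Vmn2r genes; dot size grows with the number of CpGs, the line marks equal levels, and red diamonds mark the 2 called genes. Vmn1r genes crowd above 80%, Vmn2r genes spread along the line, and the called genes lie far below it.

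At single cytosines, 1 of 3961 was called at a minimum difference of 20 points: a cytosine in the 1 kb beside Vmn2r96, outside the gene (chromosome 17, position 18572807, minus strand), had 14 of 16 reads methylated in TSPAN8-high and 2 of 22 in TSPAN8-low (87.5% against 9.09%, Fisher's exact test, adjusted p 0.0484). No member cytosine was called lower, and at an unadjusted p below 0.05 there were 70 higher and 83 lower. Over the whole table, the share of cytosines called was 0.000712% higher and 0.0004% lower. The 153 member cytosines with an unadjusted p below 0.05 were 3.86% of all member cytosines, where the share over the table was 1.46%. The mix of levels also differed. Of cytosines read at least 10 times in each library, 23.6% of the members' and 4.73% of the table's lay between 20% and 80% in both. The part of this mix in the higher share was not tested. In the authors' deposited table, 153 member cytosines have a p below 0.05.

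Levels differed far more between clusters of members than between the libraries. Members less than 1 Mb apart formed 27 clusters, and 20 of these had at least 20 CpG-sparse cytosines in member windows. In 8 of the 20 the pooled CpG-sparse level was below 80% in both libraries, and in 12 it was at 80% or above in both. The 80% line was chosen after the values were seen and serves as a description only. The 8 clusters ran from 55.4% to 75.7% in TSPAN8-high and the 12 from 85.6% to 94.1%, while within a cluster the libraries differed by at most 3.38 points.

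Of the 8 clusters, 5 are on chromosome 7, 2 on chromosome 17 and 1 on chromosome 5. The lowest, at 5.1 to 6.0 Mb of chromosome 7 with 11 Vmn1r genes and Vmn2r28, was at 55.4% and 56.4%. The cluster of 8 Vmn2r genes at 41.4 to 43.0 Mb was at 63.4% and 61.7%, and the mixed cluster of 52 genes at 7.2 to 13.2 Mb was at 68.3% and 68.8%. The largest mixed cluster of chromosome 17, with 14 Vmn1r and 22 Vmn2r genes at 17.7 to 21.3 Mb, was at 68.2% and 67.8%.

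The most methylated cluster in TSPAN8-high was that of 36 Vmn1r genes at 22.1 to 23.3 Mb of chromosome 13, at 94.1% and 96.0%, and in TSPAN8-low that of 8 Vmn1r genes at 66.6 to 66.8 Mb of chromosome 6, at 93.0% and 96.4%. Vmn2r genes were also highly methylated in some places: the 4 genes at 79.1 to 79.5 Mb of chromosome 10 were at 90.1% and 91.8%, and the 7 genes on chromosome 3, Vmn2r1 to Vmn2r7, were at 87.4% and 88.3%. These chromosome 3 genes encode the family C receptors, which are made together with other V2Rs in the same neurons. Among them Vmn2r5 was at 95.9% and 90.8%, Vmn2r1 at 83.8% and 84.3% over 143 CpGs, the most of any member, and Vmn2r7 was the lowest at 75.8% and 76.2%.

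Both families took part in this split. In the 8 clusters, which the level itself chose, CpG-sparse cytosines were at 74.6% and 75.2% in Vmn1r genes and at 67.4% and 67.2% in Vmn2r genes, and in the 12 they were at 90.2% and 91.1% in Vmn1r and 89.0% and 90.1% in Vmn2r genes. In the 8 clusters 75 of 114 tested genes were below 80% in both libraries, and in the 12 clusters 4 of 68. In the mixed cluster of chromosome 17 at 17.7 to 21.3 Mb the pooled levels of the families were apart. The 40 cytosines of Vmn1r genes were at 83.8% and 81.2%, and the 660 of Vmn2r genes at 67.2% and 67.0%. Single genes did not follow the family throughout. Over whole windows Vmn1r225 was at 33.3% and 46.7% and Vmn1r227 at 36.4% and 22.6%, each over 2 CpGs, while Vmn2r92 was at 89.5% and 89.4%. Vmn1r226 to Vmn1r237 lie past the last Vmn2r gene of the cluster, so family and position were not separated.

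The surroundings of the clusters were measured in the same way. In all 8 clusters the 1 Mb on either side was more methylated than the members in both libraries, at 75.9% to 91.3% in TSPAN8-high. Cytosines between the members, outside their windows, were also below 80% in 7 of the 8 clusters: those of the chromosome 17 cluster at 17.7 to 21.3 Mb were at 65.2% and 65.8%, with flanks at 84.8% and 86.3%. In the 12 other clusters the flanks were more methylated than the members in 3, and in 9 of 9 with enough cytosines the sequence between members was less methylated than the members in both libraries.

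**Figure D3:**
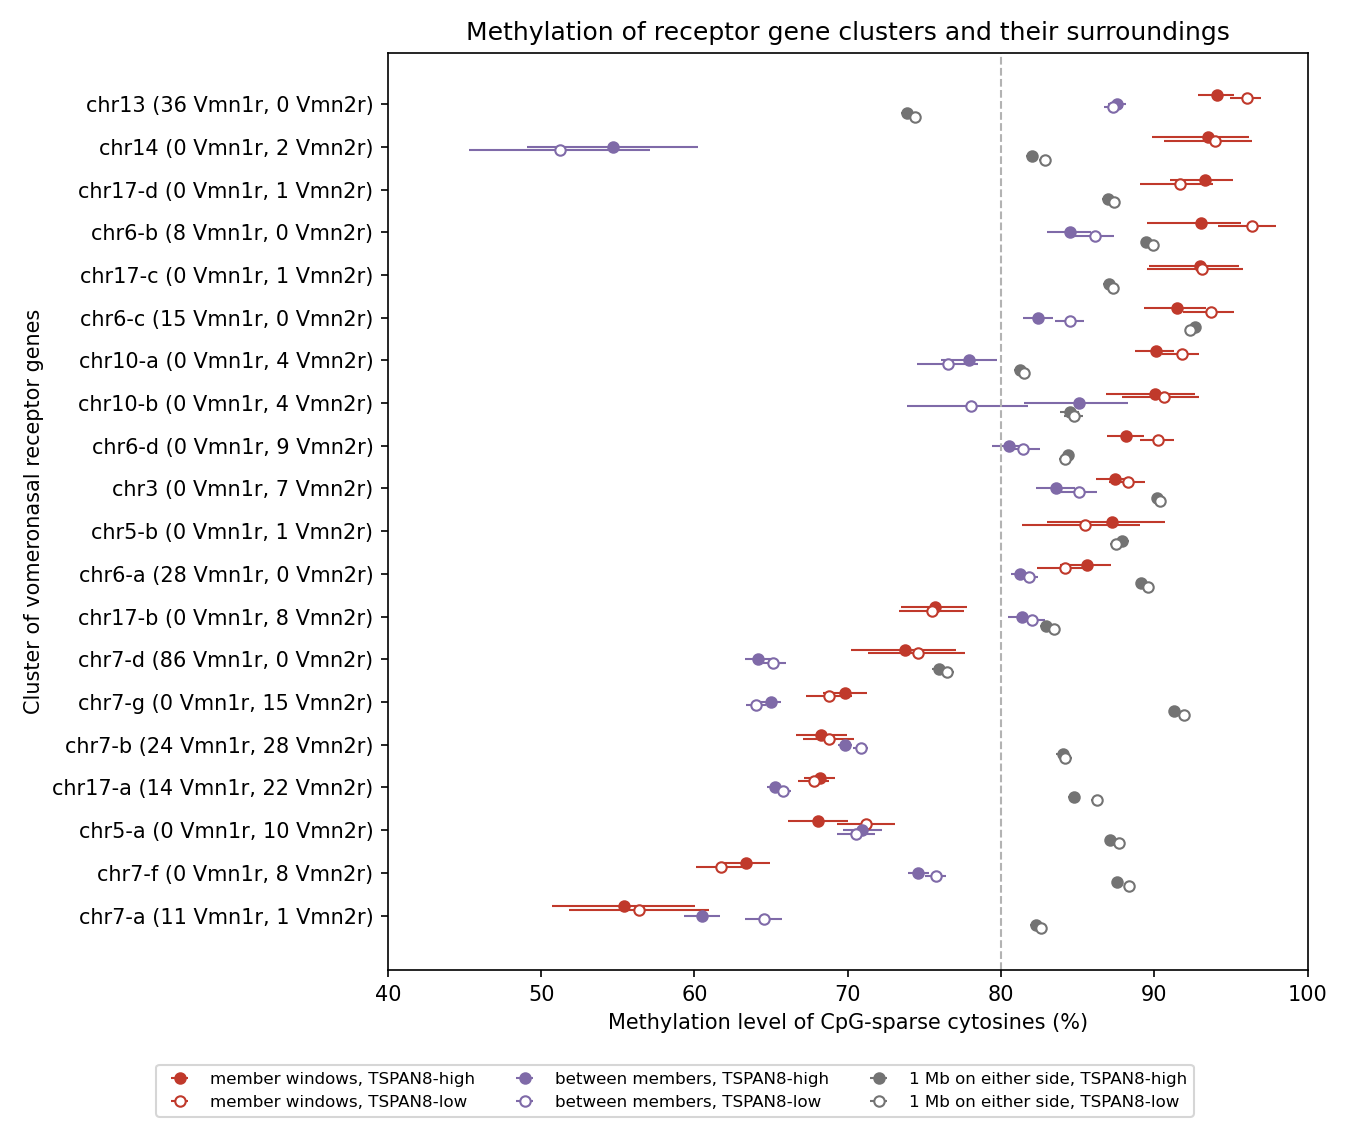
Methylation level of CpG-sparse cytosines in the 20 clusters, ordered by the level of member windows in TSPAN8-high; filled points are TSPAN8-high, open points TSPAN8-low, bars are 95% exact intervals, and clusters on a chromosome are lettered in order of position (the letters count all 27 clusters). Member windows (red) of the 8 lowest clusters lie left of the 80% line, and their flanks of 1 Mb (grey) lie to the right of the members in all 8.

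Because the genes are recent duplicates, reads of 50 bases can fit more than 1 gene, and how the authors' alignment treated such reads is not given in the sources used here. Of 324 member promoters, 189 (58.3%) share at least 1 stretch of 50 bases with the promoter of another gene, against 13.6% of Olfr promoters. The share was 65.4% (140 of 214) in the 8 clusters and 44.8% (47 of 105) in the 12. On sequence converted as by bisulfite the gap was smaller, with 148 of 214 promoters in the 8 clusters and 63 of 105 in the 12. Unconverted stretches are used below. In the cluster of 86 Vmn1r genes at 20.1 to 24.1 Mb of chromosome 7 the unconverted share was 91.6%. Its 76 promoters with a shared stretch were among the 140 of the 8 clusters. Of the 86 genes, 61 had no listed cytosine, so that 9 were tested.

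The levels are given for genes with and without a shared stretch in the promoter, in clusters that the level itself had divided. Promoters alone were searched, so genes without a shared stretch there can share sequence elsewhere. Of Vmn2r cytosines, 2721 lay further inside the gene than its first 1 kb, against 146 in that first 1 kb and 149 in the 1 kb before the start. In the 8 clusters 33 of 50 tested genes without a shared stretch were below 80% in both libraries, with medians of 64.3% and 68.7%, and 40 of 58 with one, with medians of 60.7% and 66.1%. In the 12 clusters the numbers were 3 of 37 and 1 of 28. In the large chromosome 17 cluster 4 of 34 promoters share a stretch. The part of misplaced reads in these levels was not tested.

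Along Vmn2r genes, the low level of the 8 clusters was not limited to gene starts. CpG-sparse cytosines of these genes were at 70.9% and 70.1% in the 1 kb before the start, at 62.4% and 64.8% in the first 2 kb, at 66.0% and 66.2% from 5 to 10 kb, and at 72.2% and 70.2% from 20 to 40 kb. In Vmn2r genes of all other clusters the levels at these places were 84.1% and 86.6%, 89.7% and 91.8%, 92.4% and 91.4%, and 88.1% and 89.7%. The groups were separated at every distance in both libraries, but the level of these same cytosines had divided the clusters. A gap between the groups was thus largely set in advance.

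**Figure D4:**
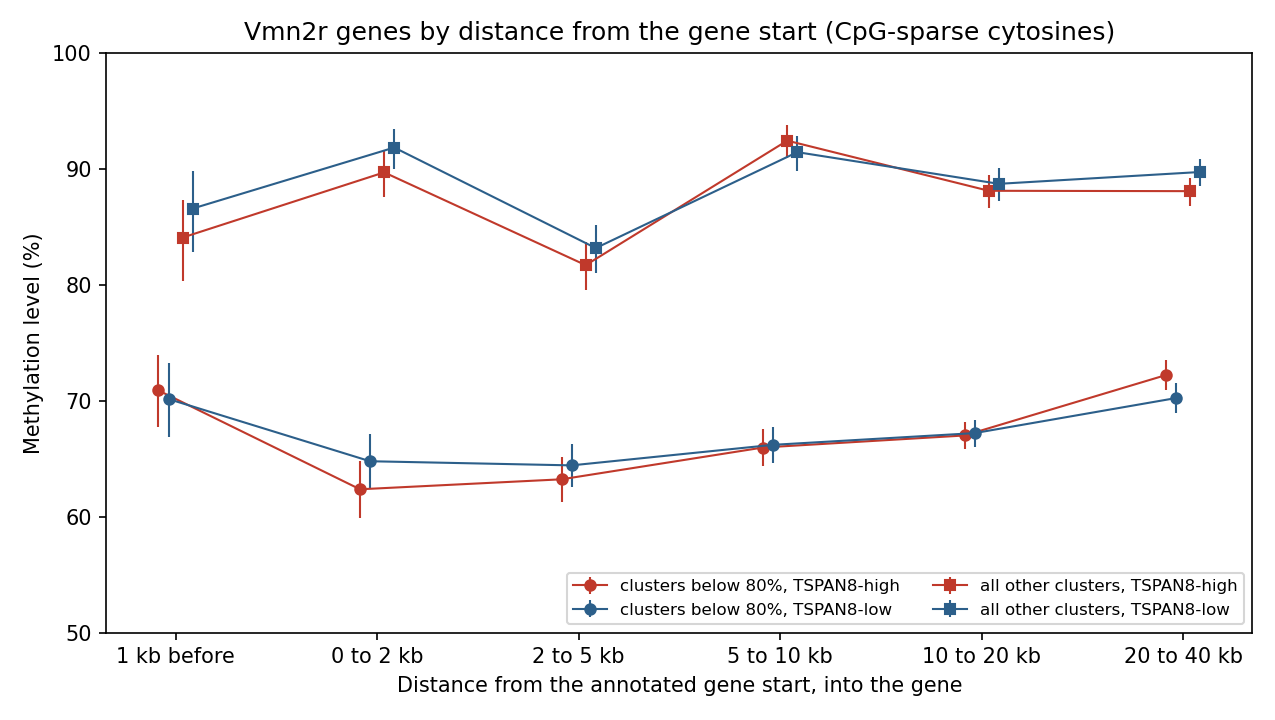
Methylation of CpG-sparse cytosines of Vmn2r genes by distance from the annotated start, from 1 kb before to 40 kb into the gene, for the clusters below 80% (circles) and all other clusters (squares), in TSPAN8-high (red) and TSPAN8-low (blue); bars are 95% exact intervals. The lower curves stay between 62.4% and 72.2% and the upper ones between 81.7% and 92.4%. The level itself had divided the clusters.

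Among members with at least 5 CpGs, the V2R genes with the lowest mean of the libraries were Vmn2r69, Vmn2r38 and Vmn2r74. Vmn2r69 and Vmn2r74 lie at 84.9 to 87.0 Mb of chromosome 7, in a cluster of 15 genes. Vmn2r69 was at 15.3% of 255 reads and 16.5% of 237 reads, Vmn2r74 at 31.3% of 233 and 31.3% of 224 reads, and Vmn2r75 as given above. In the same cluster Vmn2r79 was at 85.9% and 84.5% and Vmn2r76 at 84.1% and 83.1%, so neighbours in 1 cluster stood at opposite ends while the libraries differed at Vmn2r69, Vmn2r74, Vmn2r76 and Vmn2r79 by less than 2 points. In the cluster at 7.2 to 13.2 Mb of the same chromosome, Vmn2r38 was at 24.6% of 57 and 35.5% of 62 reads.

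Among V1R genes with at least 5 CpGs the lowest mean was that of Vmn1r4 on chromosome 6, whose window holds a CpG-dense stretch described below, and next came genes at 5.1 to 6.0 Mb of chromosome 7. Vmn1r65 was at 54.1% and 52.0% over 11 CpGs, Vmn1r56 at 63.9% and 70.3% over 5, and Vmn1r61, a neighbour of Vmn1r58 chosen after its values were seen, at 8.33% and 25.0% over 3. At the high end Vmn1r43 was at 100% of 76 reads and 92.5% of 107, Vmn1r32 at 95.8% and 100%, and Vmn1r206 at 93.6% and 98.6%. Among V2R genes Vmn2r86 (97.5% and 96.5%), Vmn2r113 (96.8% and 97.5%) and Vmn2r88 (94.0% and 96.2%) had the highest means of the libraries with at least 5 CpGs, and Vmn2r113 lies in a cluster with Vmn2r114 at 55.4% and 55.5%.

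The members with the most CpGs, which have the narrowest counting error, ranged widely. Vmn2r60 was at 54.4% and 51.3% over 71 CpGs, Vmn2r59 at 52.3% and 46.1% over 55 and Vmn2r29 at 47.3% and 52.8% over 71. Among V1R genes Vmn1r4 was at 39.1% and 34.5% over 52 CpGs, Vmn1r30 at 77.0% and 73.3% over 16, Vmn1r14 at 73.3% and 75.0% over 11 and Vmn1r45 at 88.9% and 93.4% over 11. None of these was called.

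Stretches of at least 5 CpGs, each with at least 5 listed CpGs in the 200 bp around it, were found in the windows of 11 members. In other protein-coding genes the levels were 61.8% and 62.7% at cytosines with 3 to 9 listed CpGs in 200 bp, and 1.36% and 1.35% at those with 10 or more. The stretch in the window of Vmn1r4 was at 2.43% of 824 reads and 0.493% of 811 reads over 24 CpGs, but it lies at positions -32671 to -32212 from the start that RefSeq's promoter uses and is shared with the window of Nt5c3, a nucleotidase gene. The rest of the Vmn1r4 window was at 91.7% and 89.1%.

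RefSeq lists another promoter for Vmn2r29 besides the printed one. The dense stretch of this gene spans the start of the printed promoter, from position -202 to 625 (chromosome 7, 7277664 to 7278491), and overlaps that promoter. Its 39 CpGs were at 19.5% (interval 15.8 to 23.7) and 24.2% (19.9 to 29.0), while the rest of its window was at 79.4% and 84.1%. Vmn2r69 had 8 dense CpGs at positions -1001 to -891 from its start, at 8.82% and 6.19%, with the rest of the window at 22.7% and 25.8%.

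Dense stretches of the other V2R genes ranged from 13.9% to 100% in a library; all but that of Vmn2r79, in the 1 kb past its end, lie inside the genes. Those of Vmn2r75 (24.5% and 13.9%), Vmn2r103 (21.2% and 21.4%) and Vmn2r65 (39.3% and 29.5%) were less methylated than the rest of the same windows, which were at 60.5% and 52.3%, 59.7% and 60.9%, and 85.2% and 85.9%. Those of Vmn2r79 (86.1% and 89.4%), Vmn2r62 (85.7% and 100%) and Vmn2r4 (84.0% and 86.0%) were above 80% in both libraries, each on 35 to 50 reads a library, and that of Vmn2r7 was at 68.8% and 58.6%. In Vmn1r65 the stretch, inside the gene, was at 41.7% and 42.5%.

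**Figure D5:**
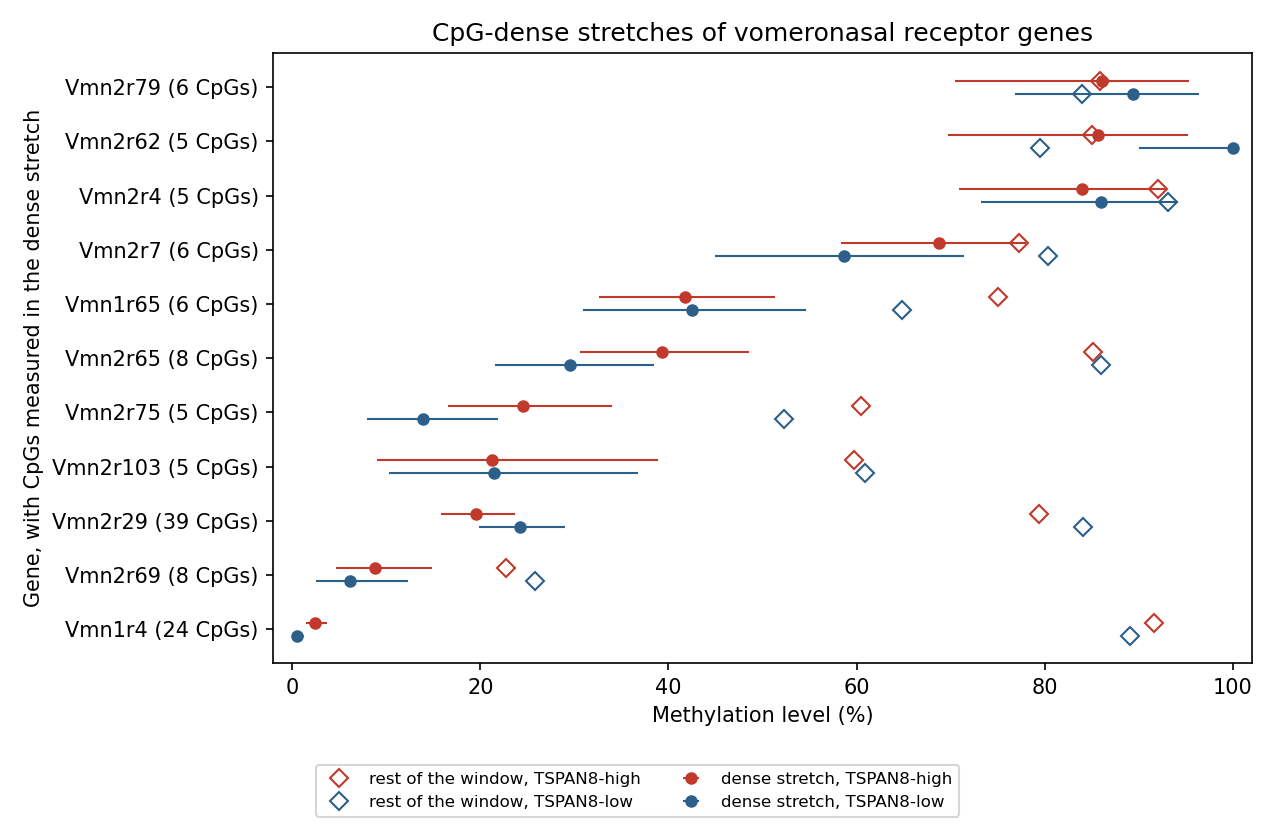
Methylation of the 11 CpG-dense stretches (dots, with 95% exact intervals) and of the rest of the same gene window (open diamonds) in TSPAN8-high (red) and TSPAN8-low (blue). In 7 genes, from Vmn1r4 to Vmn1r65, the dense stretch lies to the left of the rest of the window in both libraries without overlap of its interval with that level, and in Vmn2r79, Vmn2r62 and Vmn2r4 it lies above 80%.

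Other genes of vomeronasal signalling were taken from a list of 41, of which 40 matched and 35 were tested. None was called higher and 1 was called lower, and the median levels were 75.9% and 76.7% with a median difference of -0.44 points, beside -0.50 over all genes. The gene called was Esp1, which encodes a male pheromone peptide read by a V2R receptor, at 84.6% of 91 reads and 97.0% of 101 reads over 7 CpGs (difference -12.4 points, Fisher's exact test, adjusted p 0.0279). This call was lost with at least 10 reads, with the gene span alone and with 1 CpG kept per 100 bp, where the differences were -16.0, -8.89 and -12.4 points. Its receptor gene Vmn2r116 was at 78.0% of 381 reads and 82.4% of 421 reads (Fisher's exact test, adjusted p 0.321). Trpc2, the cation channel of vomeronasal neurons, was at 66.5% of 875 reads and 72.3% of 848 reads (difference -5.77 points, Fisher's exact test, adjusted p 0.0571).

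Starts of downstream and neuronal genes differed in level. Within 1 kb of the start, Gnao1, the G protein subunit used by V2R neurons, was at 1.01% and 1.09%, its partner subunit Gng8 at 2.08% and 1.54%, and the transcription factor genes Bcl11b at 0.681% and 1.56% and Tfap2e at 2.54% and 0.935%. The chloride channel genes Ano1 and Ano2 were at 9.92% and 8.94% and at 41.8% and 37.9% there. Omp, the marker of mature olfactory and vomeronasal neurons, had no start value and was at 98.9% and 95.8% over the 6 CpGs of its whole window. The H2-M10 genes, class I molecules that accompany V2Rs, varied within 1 kb of the start. There H2-M10.5 was at 7.41% and 2% and H2-M10.1 at 15.4% and 17.9%, while H2-M10.6 was at 98.2% and 95%.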

How the data were processed

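RRBS was made by a sequencing service from MspI, BfaI and MseI fragments with paired reads of 50 bases, per the labels' protocols. Bowtie, SICER, mm9 and mm10 are named in the submitters' processing notes with no role; the RRBS aligner and its handling of reads that fit several places are not given in the sources used here. The authors deposited 1 table with a line per cytosine: the methylation level as a fraction rounded to 2 decimals, the coverage as read counts, a difference, TSPAN8-high minus TSPAN8-low (unit other), and a p-value. The deposited counts sum to 83658949 and 83773700 reads, with no value below 5. The members and lists were chosen with earlier results of these data known.

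The number of methylated reads was taken as the product of level and coverage, rounded. Gene spans came from the RefSeq table for mm10, and starts from the RefSeq promoter table; that positions are mm10 was checked by reading CG at the listed cytosines in promoter sequences. Reads were pooled over each protein-coding gene with 1 kb either side and at least 3 CpGs, and tested with Fisher's exact test (two-sided, Benjamini-Hochberg over all 19930 genes tested). Calls of genes required an adjusted p under 0.05 together with 10 percentage points, and calls of cytosines 20 points, adjusted over the whole table. Reads over several CpGs count at each, and reads without molecular identifiers are not independent, so p-values are too small. Intervals are 95% exact Clopper-Pearson intervals of levels and Newcombe intervals of differences. Named genes were those called, the 4 with the most CpGs in each family, with at least 5 CpGs the 3 lowest, the 3 highest and the 3 largest differences each way, the 3 of highest coverage, and Trpc2 and called genes of the pathway list; others named were chosen after their values were seen. The scripts used Python 3.11.15, numpy 2.4.6, pandas 2.3.3, scipy 1.17.1 and matplotlib 3.10.9, and were tested on simulated data.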

Additional observations from a re-analysis of the deposited data

How the results depend on the processing

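No paired analysis was possible because each group had 1 library, and no library could be left out. Each choice was changed alone; levels below are those of TSPAN8-high, differences are TSPAN8-high minus TSPAN8-low in percentage points. With at least 10 reads per cytosine the pooled difference was 0.81, Vmn1r genes were at 73.5%, Vmn2r genes at 73.2% and the CpG-sparse cytosines of the 8 lowest clusters at 69.6%; 2 genes and 2 cytosines were called higher. With at least 20 reads the pooled difference was -2.46, with all members at 70.0%, Vmn1r genes at 65.4%, Vmn2r genes at 71.6%, the 8 clusters at 68.9% and the other 12 at 88.1%. Vmn1r and Vmn2r genes were at 78.7% and 71.9% by unweighted means and at 71.1% and 73.1% over gene spans alone. Without cytosines shared with other genes all members were at 74.3% and Vmn1r genes at 84.1%. With 1 CpG kept per 100 bp all members were at 75.4%, Vmn1r genes at 82.8% and Vmn2r genes at 73.8%, and 0 genes were called lower (171 tested). With no minimum difference 2 genes were called higher. The order of the families thus depended on depth and window. The 8 clusters together stayed below the other 12 in TSPAN8-high under each alternative above. The clusters were kept as the level had first divided them, so this gap was largely set in advance. Leaving out the deepest cytosines changed no call.

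Of 131 differences recomputed at 34 named genes, 109 kept direction and side of the threshold, and 14, none of them past the threshold, changed sign. Of the 109, 31 were by unweighted means, where no test was run, so the side of the threshold could not change. Genes with too few CpGs for a test counted as not past the threshold, and a difference of 0 counted as kept. At 10 reads these were Vmn2r88 (3.28), Vmn2r113 (0.28), Vmn1r14 (7.59), Vmn2r45 (4.44), Vmn2r69 (1.00) and Vmn2r74 (-10.29). Over gene spans they were Vmn2r86 (-0.66), Vmn1r14 (10.26), Vmn1r20 (11.9) and Vmn1r65 (-1.71). With 1 CpG per 100 bp Vmn2r1 was at 0.035, and by unweighted means Vmn2r1 was at 0.22, Vmn1r14 at 3.38 and Vmn1r37 at 1.00. The cause of these changes was not tested. Coverage of about 10 reads limits single cytosines to large differences.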
